A study of Drosophila melanogaster with 8 samples.

Results

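The glutathione S-transferase (GST) genes were taken by name from the rows of the deposited table. The names are GstD, GstE, GstO, GstS, GstT or GstZ with a number, together with Mgstl and se. The rule used names only, but it was set with earlier results of these data known. This gave 37 of the 16727 genes in the table, of which 11 belong to the Delta class, 14 to Epsilon, 4 to Omega including se, 1 to Sigma, 4 to Theta and 2 to Zeta, and Mgstl is the microsomal enzyme. RNA was sequenced from whole heads of female w1118 flies that all carried the UAS-(G4C2)36 repeat transgene and the elavGS driver, which is active in neurons only when RU486 is fed. Induced flies received food with 200 µM RU486 for 5 d, and uninduced flies received the ethanol vehicle for the same time. Each group held 4 libraries of 15 heads, and the series gives an age of 7 d. RU486 and repeat expression occurred in the same libraries, so their effects cannot be told apart here.

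GSTs join the tripeptide glutathione to electrophilic compounds, which makes them soluble and marks them for export from the cell. In insects the Delta and Epsilon classes are expanded and act mainly on insecticides, plant toxins and products of lipid peroxidation, whereas the Omega, Sigma, Theta and Zeta classes have close relatives in vertebrates. Many Delta and Epsilon genes respond to oxidative stress through the transcription factor CncC, the fly counterpart of Nrf2. In the head, GST transcripts can come from fat body, glia, neurons, the eye and the antennae. Whole heads were sequenced, so fewer cells of a type and less RNA per cell cannot be told apart.

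Library totals ranged from 13421396 to 14962813 counts in induced heads and from 13247282 to 14192723 in uninduced heads, and 1 count was worth 0.0634 to 0.0690 CPM (counts scaled to a common library size) in induced and 0.0748 to 0.0792 CPM in uninduced libraries. CPM values were scaled with edgeR's TMM factors, which correct for differences in library composition. Replicates of one group differed by more than sampling alone gives. Uninduced replicate 4 stood apart: set against each other uninduced library it gave 8.44 to 11.79 chi-square units per gene, where those libraries gave 3.62 to 3.79 among themselves and the induced libraries 2.65 to 8.45. It was the highest uninduced library for 24 of the 32 GST genes tested and the lowest for 0 of them. Results that rest on it are therefore also given without it. The labelled tissue was checked against marker genes: the photoreceptor markers together had 47960 to 50760 CPM in induced and 47080 to 49430 CPM in uninduced heads, and the neuronal markers 2757 to 2936 CPM in induced and 2625 to 2902 CPM in uninduced heads. The 8 midgut and germline markers together had 9.57 to 11.5 CPM in induced and 10.0 to 14.5 CPM in uninduced heads.

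GST transcripts were on balance less abundant in induced heads, and 10 of the 15 genes that fell were of the Epsilon class. Of the 37 genes, 32 had enough counts to be tested. By the quasi-likelihood test of edgeR, with p-values adjusted over all genes tested after Benjamini and Hochberg, 1 of the 32 was higher in induced heads at an adjusted p under 0.05, 15 were lower and 16 did not pass. Over all 9905 genes tested 17.7% were higher, 18.8% lower and 36.5% changed in either direction, against 3.12%, 46.9% and 50.0% of the GST genes. The groups did not overlap for 1 GST gene that was higher and 13 that were lower, where the shares over all genes were 18.1% and 17.9%, or 36.0% together. The median log2 fold change of the 32 genes was -0.18, and that of all genes tested was 0.00. When libraries were scaled to their totals only, the median of all genes shifted to 0.18, and 4 GST genes were then higher and 11 lower. Uninduced replicate 4 did not decide the direction, since 13 genes were lower and 3 higher without it.

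**Figure D1:**
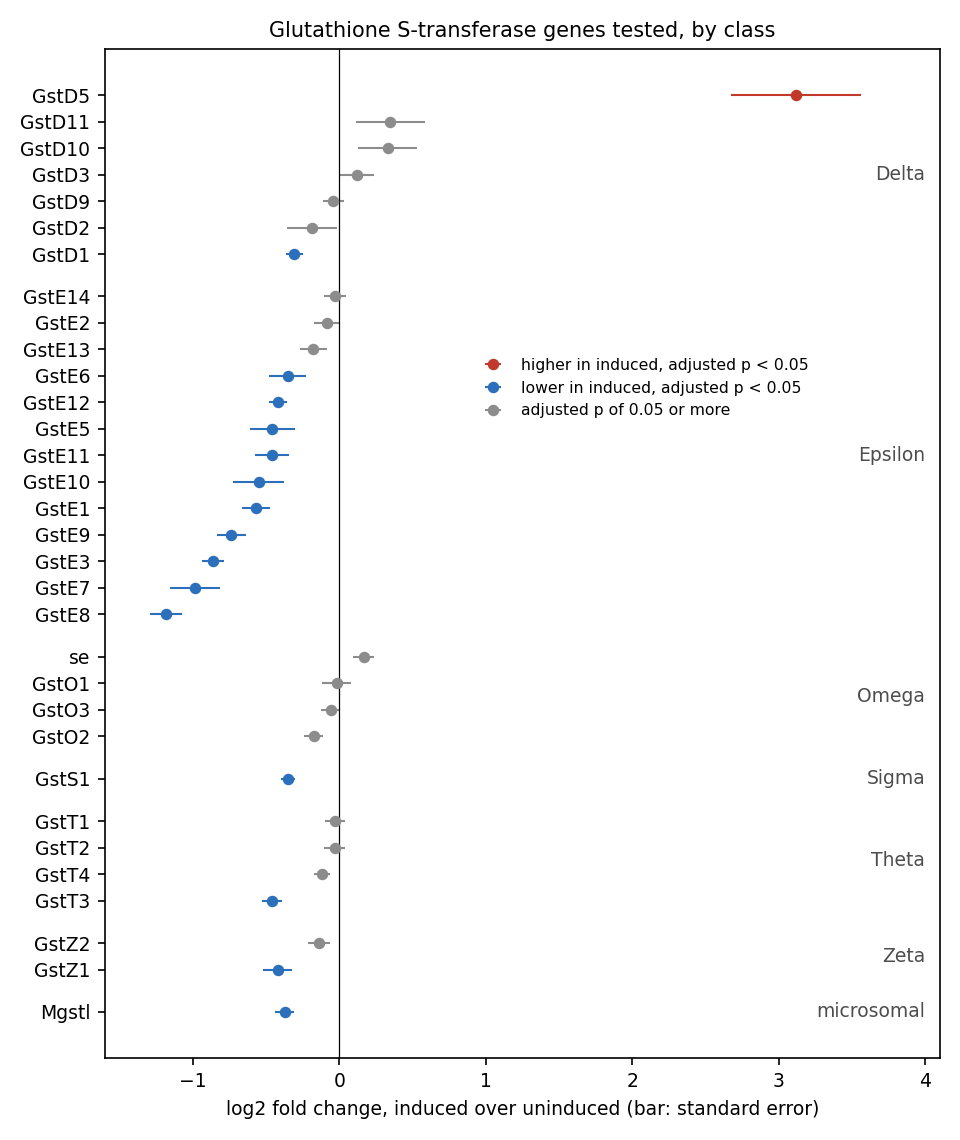
Log2 fold change (x axis, induced over uninduced, with its standard error as a bar) of the 32 GST genes tested, grouped by class and sorted within it. Red marks the 1 gene that was higher, blue the 15 that were lower and grey the 16 that did not pass an adjusted p of 0.05; the blue points lie mostly among the Epsilon genes.

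The summed level of all 37 genes was 1513, 1493, 1531 and 1500.0 CPM in induced libraries 1 to 4, against 1902, 1781, 1823 and 2140.0 CPM in uninduced libraries 1 to 4. Every induced library was below every uninduced one, and the induced sum was 78.9% of the uninduced sum (82.2% without uninduced replicate 4, 89.3% with scaling to totals only). Epsilon genes made up the largest part of the difference, with 685 ± 6.16 CPM in induced and 949 ± 96.9 CPM in uninduced heads (SD, n = 4 each). For the Delta class the sums were 332 ± 19.5 CPM in induced and 399 ± 23.0 CPM in uninduced heads, and for the Omega class 188 ± 8.14 CPM in induced and 196 ± 18.5 CPM in uninduced heads. The Epsilon and Delta sums did not overlap between the groups, and the Omega sums did. The Theta sum was nearly constant among induced libraries, from 116 to 117 CPM, below 119 to 135 CPM in uninduced libraries. These sums are given as a description without a test.

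**Figure D2:**
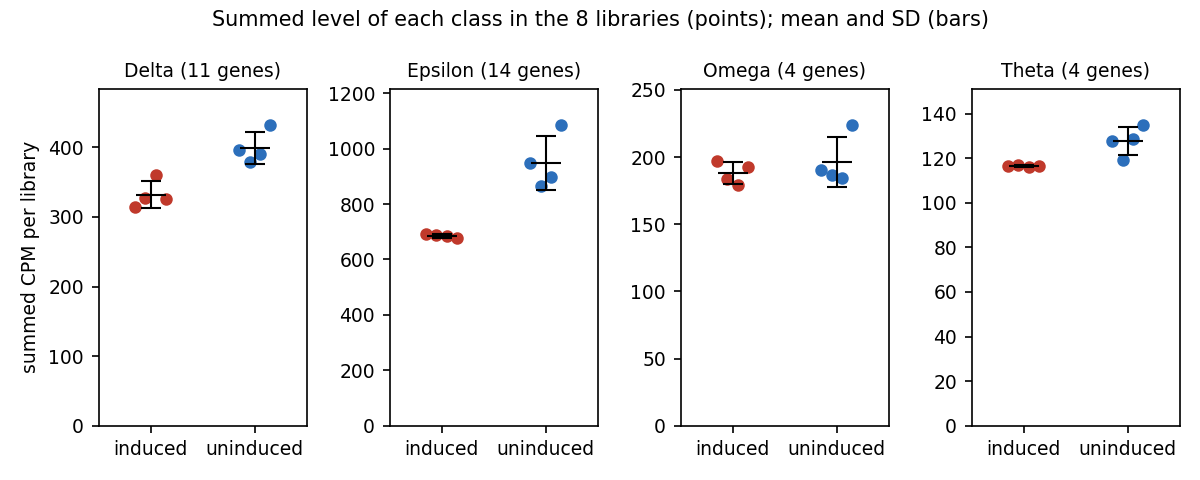
Summed CPM of the Delta, Epsilon, Omega and Theta classes (y axes, starting at 0) in the 4 induced and the 4 uninduced libraries, with one point per library and the mean and SD as bars. The Epsilon points lie at 677 to 692 CPM in induced and at 867 to 1085 CPM in uninduced libraries, whereas the Omega points overlap.

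A few genes supplied most GST transcripts. Per length of annotated exon, in CPM per kilobase (RPKM), GstD1 was the most abundant with 346 ± 20.5 RPKM in induced and 427 ± 24.8 RPKM in uninduced heads (SD, n = 4 each). GstD1 is a well studied fly GST, able to break down the insecticide DDT, and its reporter is a standard readout of oxidative stress. GstE12 followed with 314 ± 3.88 RPKM in induced and 420.0 ± 41.7 RPKM in uninduced heads. GstE9 had 114 ± 10.6 RPKM in induced and 190.0 ± 31.0 RPKM in uninduced heads, and Mgstl 96.2 RPKM in induced and 125 RPKM in uninduced heads. The levels of GstD1 and GstE12 overlapped in uninduced heads, at 406 to 463 RPKM for GstD1 and 380 to 477 RPKM for GstE12, but in induced heads every GstD1 value, from 329 RPKM upwards, was above every GstE12 value, up to 319 RPKM. The ranks of the 5 most abundant genes by mean, of which the fifth was GstO3, were the same in both groups. GstE3 stood at rank 10 in induced and rank 6 in uninduced heads, and se at rank 6 in induced and rank 9 in uninduced heads. At the other end, GstD4, GstD6 and GstD7 had 0 to 10 counts in every library, and GstD8 had 6 to 11 in induced and 4 to 9 in uninduced libraries. These 4 genes did not reach the minimum for testing.

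In the Epsilon class 10 of 13 tested genes were lower in induced heads and 3 did not pass. The share of lower genes was 76.9%, against 18.8% over all genes tested. The median log2 fold change of the class was -0.46. GstE1 to GstE10 form a tandem array on chromosome 2R, from position 18396638 to 18409835 (BDGP6 assembly, dm6 coordinates), with no other protein-coding gene in between. GstE10 lies at one end on the minus strand and the other 9 genes follow on the plus strand. Of the 9 genes of the array that were tested, 8 were lower, and the sum over the array was 64.0% of the uninduced level (68.0% without uninduced replicate 4). Genes of such arrays are similar in sequence, and how the counting treated reads that match several genes is not given, so the split of reads between neighbours is uncertain.

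GstE8 fell most, with 4.57, 4.34, 4.94 and 3.77 CPM in induced and 9.28, 9.95, 9.51 and 11.4 CPM in uninduced libraries 1 to 4. Its log2 fold change was -1.18 (standard error 0.11, edgeR adjusted p = 1.45e-06). The neighbouring gene GstE7 had 2.52, 4.21, 3.55 and 4.41 CPM in induced libraries, against 7.48, 6.97, 5.70 and 8.95 CPM in uninduced libraries (log2 fold change -0.98, standard error 0.17, edgeR adjusted p = 4.23e-04). The induced mean was 0.44 times the uninduced mean for GstE8 and 0.50 times for GstE7, and the groups did not overlap for either gene. GstE3 had 26.9, 29.5, 26.4 and 24.3 CPM in induced and 44.3, 49.8, 46.0 and 54.5 CPM in uninduced libraries. Its log2 fold change of -0.86 (standard error 0.08, edgeR adjusted p = 7.81e-07) was, relative to its error, the clearest of the family. GstE9, the most abundant gene of the array, had 100.4, 87.8, 80.3 and 91.3 CPM in induced and 146, 136, 132 and 185 CPM in uninduced libraries (log2 fold change -0.74, standard error 0.10, edgeR adjusted p = 3.67e-05). The highest uninduced value of GstE3 and GstE9 was that of replicate 4, and both genes stayed lower without any one library. GstE9 shares 40 bases of exon with imd on the opposite strand.

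GstE1, whose product is known to conjugate the lipid peroxidation product 4-hydroxynonenal, had 25.9, 21.9, 21.0 and 17.9 CPM in induced and 29.0, 31.2, 33.4 and 34.9 CPM in uninduced libraries (log2 fold change -0.57, standard error 0.10, edgeR adjusted p = 3.48e-04). GstE10, which overlaps GstE1 by 20 bases on the other strand, was far lower in level, with 1.84, 1.52, 1.96 and 1.85 CPM in induced and 3.22, 2.37, 2.22 and 2.72 CPM in uninduced libraries (log2 fold change -0.55, standard error 0.17, edgeR adjusted p = 0.0221). The groups did not overlap for either gene, but the call of GstE10 was lost without induced replicate 2 (adjusted p = 0.0611), without uninduced replicate 1 (0.0914) or 4 (0.0505), in DESeq2 (0.0924) and with library totals only (0.0808), and its adjusted p over the alternatives ranged from 0.0203 to 0.0924.

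GstE5 and GstE6 passed more narrowly, and their groups overlapped. GstE6 had 22.7, 32.1, 31.6 and 29.1 CPM in induced and 42.6, 28.5, 34.1 and 42.2 CPM in uninduced libraries (log2 fold change -0.35, standard error 0.13, edgeR adjusted p = 0.042). GstE5 had 3.48, 5.10, 4.06 and 3.77 CPM in induced and 4.64, 6.81, 6.10 and 4.98 CPM in uninduced libraries (log2 fold change -0.46, standard error 0.15, edgeR adjusted p = 0.0303). For GstE6 the adjusted p rose to 0.118 without induced replicate 1, to 0.0759 without induced replicate 4 and to 0.152, 0.0544 and 0.135 without uninduced replicate 1, 3 and 4. With the replicate number as a block the adjusted p of GstE6 was 0.0578, and with library totals only 0.246. The call of GstE5 was lost without induced replicate 1 (adjusted p = 0.0805), 3 (0.058) or 4 (0.0775), without uninduced replicate 2 (0.117) or 3 (0.0814), in DESeq2 (0.0548) and with library totals only (0.141). GstE2, the remaining tested gene of the array, had 12.7 to 13.5 CPM in induced and 12.3 to 16.0 CPM in uninduced libraries and did not pass (log2 fold change -0.09, edgeR adjusted p = 0.461).

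**Figure D3:**
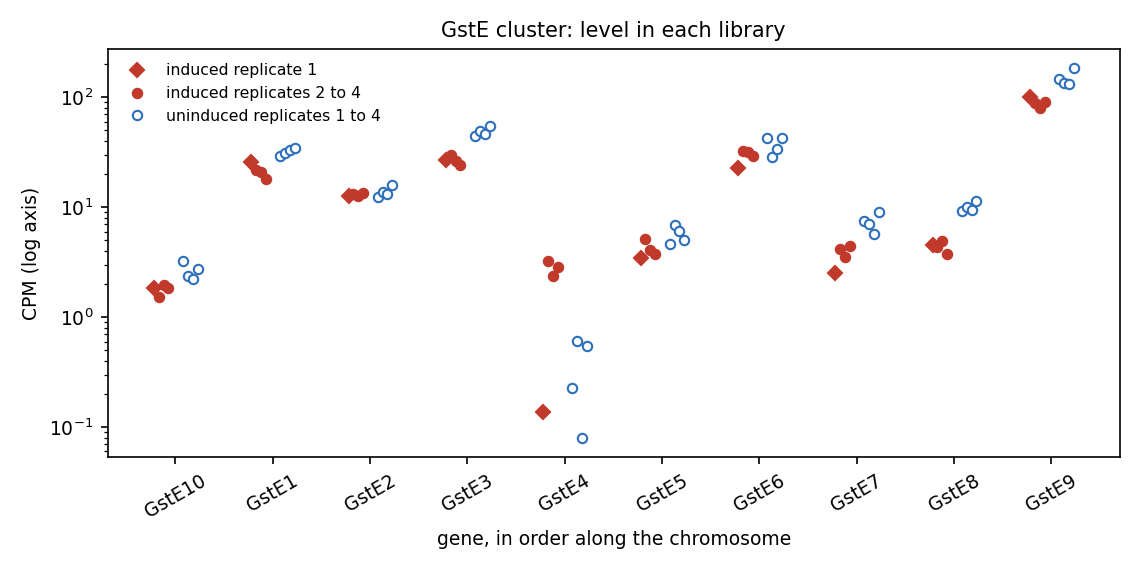
Level of the 10 genes of the GstE array in each library, in CPM on a log axis, with genes in their order along the chromosome and induced libraries (red) to the left of uninduced ones (blue, open). Induced replicate 1 is drawn as a diamond and is the lowest induced library for GstE4, GstE5, GstE6 and GstE7, while GstE3, GstE8 and GstE9 are lower in all induced libraries.

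The other Epsilon genes lie elsewhere on chromosome 2R. GstE12, from position 24766718 to 24768172, alone supplied 29.1% of the summed GST CPM of induced and 30.7% of that of uninduced heads. It had 441, 435, 446 and 434 CPM in induced and 589, 531, 562 and 667 CPM in uninduced libraries (log2 fold change -0.42, standard error 0.06, edgeR adjusted p = 1.12e-04). The induced values of GstE12 lay close together (SD 5.43 CPM), whereas the uninduced values spread more widely (SD 58.2 CPM). GstE11, from position 18503608 to 18505025, had 7.90, 6.34, 9.38 and 7.41 CPM in induced and 11, 9.65, 10.5 and 11.7 CPM in uninduced libraries 1 to 4 (log2 fold change -0.46, standard error 0.11, edgeR adjusted p = 0.00566). For GstE12 and GstE11 every induced library was below every uninduced one. GstE14, known as noppera-bo and needed for the synthesis of the moulting hormone ecdysone, had 28.6 ± 1.29 CPM in induced and 29.2 ± 3.28 CPM in uninduced heads (SD, n = 4 each; log2 fold change -0.03, standard error 0.08, edgeR adjusted p = 0.795). GstE13 had a log2 fold change of -0.18 (edgeR adjusted p = 0.162) and passed only without uninduced replicate 3 (adjusted p = 0.0481).

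In the Delta class 1 gene was called in each direction. All 11 lie within 20849 bases on chromosome 3R, from position 12364776 to 12385624, with CG10035 as the only other protein-coding gene among them. GstD10, GstD9 and GstD1 lie on the minus strand, GstD2 to GstD8 and GstD11 on the plus strand. Of the 7 genes tested, 1 was higher, 1 lower and 5 did not pass, with a median log2 fold change of 0.12. The share called was 28.6%, below the 36.5% over all genes tested. GstD1 had 277, 284, 316 and 288 CPM in induced and 357, 342, 352 and 390.4 CPM in uninduced libraries (log2 fold change -0.31, standard error 0.06, edgeR adjusted p = 5.88e-04). It took 87.7% of the Delta CPM in induced and 90.3% in uninduced heads. The other 10 genes together had 40.7 ± 3.38 CPM in induced and 38.8 ± 2.15 CPM in uninduced heads, which overlapped between the groups. With scaling to library totals only, the log2 fold change of GstD1 was -0.13 and no longer passed (adjusted p = 0.0619).

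GstD5 was the 1 gene that rose. It had 15, 17, 16 and 17 counts in induced libraries 1 to 4, against 1, 0, 2 and 3 counts in uninduced libraries 1 to 4. All induced libraries were close to each other and well above all uninduced ones, and 3 of the uninduced values lay under the floor of 3 counts. The log2 fold change was 3.12 (standard error 0.45, edgeR adjusted p = 8.37e-05) and stayed between 2.73 and 3.67 without any one library. From the sums of 65 and 6 counts, scaled for depth, the ratio was 9.28, with an exact 95% interval for counting error of 4.04 to 26.2. GstD5 reached the test only through its induced libraries, with a level near 1 CPM, and with at least 10 counts required in every library it was not tested. Its exons overlap no other annotated gene, but its neighbours are close relatives. GstD4 and GstD6, on either side of GstD5, did not show the same pattern, with 7 against 7 counts and 16 against 6 counts in induced against uninduced heads, and 10 of the 16 GstD6 counts came from induced replicate 3.

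The remaining Delta genes did not pass. GstD9 had 19.9 ± 1.49 CPM in induced and 20.4 ± 0.979 CPM in uninduced heads, and GstD3 11.5 ± 1.44 CPM in induced and 10.6 ± 1.43 CPM in uninduced heads (SD, n = 4 each). GstD10 and GstD11 had positive log2 fold changes of 0.33 (standard error 0.20, edgeR adjusted p = 0.224) and 0.35 (standard error 0.23, edgeR adjusted p = 0.28), and GstD2 a negative one of -0.19 (standard error 0.17, edgeR adjusted p = 0.437). With library totals only, GstD10 (0.51, adjusted p = 0.0438) and GstD3 (0.30, adjusted p = 0.0298) were higher. The errors of GstD10, GstD11 and GstD2 were wide, on 14 to 60 counts per induced and 12 to 55 counts per uninduced library.

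GstE4, in the middle of the Epsilon array, stood outside the test because 1 induced library was low. It had 2, 47, 37 and 45 counts in induced libraries 1 to 4, against 3, 8, 1 and 7 counts in uninduced libraries 1 to 4. Induced replicates 2 to 4 were thus above every uninduced library, and induced replicate 1 was within the uninduced range. Without a filter on low counts its log2 fold change was 2.54 (standard error 0.57, edgeR adjusted p = 0.00156). With 1 uninduced library left out GstE4 reached the test through its induced libraries, and the log2 fold change was 2.22 to 2.90 (edgeR adjusted p = 0.0119 to 0.028). DESeq2 gave 2.56 (standard error 0.96, adjusted p = 0.0289). The array thus held one gene that was higher in 3 of 4 induced libraries beside 8 that were lower. Induced replicate 1 was also the lowest induced library for GstE5, GstE6 and GstE7, the 3 genes that follow GstE4 on the plus strand, with 22.7 CPM for GstE6 where the other induced libraries had 29.1 to 32.1 CPM, whereas for GstE3, GstE8 and GstE9 it lay within or above the range of the other 3. Over the 32 tested genes it was the lowest induced library for 10, as was induced replicate 3.

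**Figure D4:**
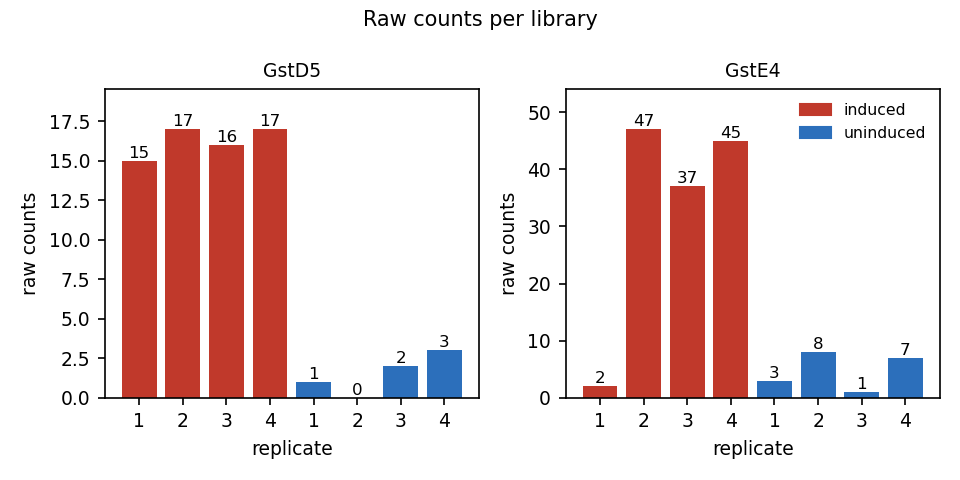
Raw counts of GstD5 and GstE4 (y axes, starting at 0) in the 4 induced (red) and the 4 uninduced (blue) libraries, with the count printed on each bar. GstD5 had 15 to 17 counts in all induced libraries and at most 3 in uninduced ones, while GstE4 was high in induced replicates 2 to 4 only.

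The Omega genes, which reduce oxidised substrates rather than conjugate toxins, showed 0 calls among 4 genes tested (2 at an unadjusted p under 0.05 in edgeR). Over all genes tested 36.5% were called, and 4 genes are too few to set the class apart from that share. DESeq2 also gave 0 calls, with 2 at an unadjusted p under 0.05. All 4 lie within 5982 bases on chromosome 3L, from position 8518885 to 8524866. GstO2, the most abundant of them by CPM, had 85.4, 79.4, 75.8 and 80.4 CPM in induced and 88.5, 86.1, 83.4 and 104.5 CPM in uninduced libraries (log2 fold change -0.18, standard error 0.07, edgeR adjusted p = 0.0508). With the replicate number as a block its adjusted p was 0.037, and without induced replicate 1 or uninduced replicate 3 it was 0.0388 and 0.0349. It also passed with upper quartile normalization (adjusted p = 0.0436), and with library totals only its log2 fold change was 0.003 (adjusted p = 0.967). The sepia gene se encodes the pyrimidodiazepine synthase that makes a precursor of the red drosopterin eye pigments. It had 46.5, 38.3, 38.3 and 41.5 CPM in induced and 35.2, 35.7, 35.3 and 40.2 CPM in uninduced libraries (log2 fold change 0.17, standard error 0.07, edgeR adjusted p = 0.0802). Without uninduced replicate 4, the highest uninduced library, it was higher by 0.22 (adjusted p = 0.0204). The exons of se and GstO2 overlap by 61 bases on opposite strands, and the strand setting of the counting is not given. GstO3 and GstO1 had log2 fold changes of -0.06 (edgeR adjusted p = 0.53) and -0.02 (edgeR adjusted p = 0.903).

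GstS1, the only Sigma gene, is known to conjugate 4-hydroxynonenal and lies on chromosome 2R from position 17093246 to 17099501. It had 54.1, 48.2, 55.1 and 51.3 CPM in induced and 65.8, 66.0, 65.1 and 69.3 CPM in uninduced libraries (log2 fold change -0.35, standard error 0.05, edgeR adjusted p = 9.81e-05). No induced library of GstS1 reached the uninduced range. Mgstl, a membrane-bound GST unrelated in sequence to the soluble ones, had 119, 106, 116 and 114 CPM in induced and 151, 138, 135 and 166 CPM in uninduced libraries (log2 fold change -0.37, standard error 0.06, edgeR adjusted p = 3.52e-04). Its groups did not overlap either. Of its 1183 exon bases, 345 are shared with an antisense RNA.

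Among the 4 Theta genes 1 was lower and 3 did not pass, where 18.8% of all genes tested were lower. GstT3, on the X chromosome, had 16.0, 15.4, 17.0 and 16.3 CPM in induced and 21.6, 20.9, 23.0 and 23.6 CPM in uninduced libraries (log2 fold change -0.46, standard error 0.07, edgeR adjusted p = 1.06e-04). GstT4, also on the X chromosome and the most abundant of the class, had 45.5, 51.6, 48.1 and 47.7 CPM in induced and 53.6, 48.2, 55.8 and 51.7 CPM in uninduced libraries (log2 fold change -0.12, standard error 0.06, edgeR adjusted p = 0.127). The groups were apart for GstT3 and overlapped for GstT4. GstT1 and GstT2, adjacent genes on chromosome 2R, had log2 fold changes of -0.03 each (edgeR adjusted p = 0.786 and 0.766, standard errors 0.07 each), and 223 of the 887 exon bases of GstT2 overlap CG12926 on the other strand.

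The Zeta genes encode maleylacetoacetate isomerases of tyrosine breakdown and lie side by side on chromosome 3R. GstZ1 had 6.54, 6.55, 6.72 and 7.03 CPM in induced and 7.93, 9.11, 8.48 and 10.4 CPM in uninduced libraries (log2 fold change -0.42, standard error 0.10, edgeR adjusted p = 0.00444). GstZ2 had 14.1, 16.1, 13.9 and 15.7 CPM in induced and 15.9, 16.1, 15.8 and 17.9 CPM in uninduced libraries (log2 fold change -0.14, standard error 0.08, edgeR adjusted p = 0.179). GstZ1 was below its uninduced range in all induced libraries, and GstZ2 overlapped. All 5 other genes of phenylalanine and tyrosine breakdown examined were also lower, where 18.8% of all genes tested were lower. The median log2 fold change of the 5 was -0.56, led by Hn, the phenylalanine hydroxylase (-0.69, edgeR adjusted p = 1.84e-05). With library totals only, 4 of the 5 were lower.

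The genes tested also differed in structure. Of the 16 GST genes without introns in their annotated transcripts, which are GstD2 to GstD8 and GstE1 to GstE9, 11 were tested, and 1 was higher and 7 lower with a median log2 fold change of -0.46. Of the 21 genes with introns all were tested, and 8 were lower with a median of -0.14. The shares over all genes tested were 17.7% higher and 18.8% lower. Among GstD2 to GstD8, 3 were tested, with 1 higher and 0 lower. The 7 lower genes without introns were thus all of the Epsilon array. All genes without introns lie in the Delta and Epsilon arrays, which also hold GstD1, GstD9, GstD10, GstD11 and GstE10 with introns.

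Other genes around the GST reaction were read from lists, whose counts stand beside the 17.7% of all genes tested that were higher and the 18.8% that were lower. The CncC regulators showed 1 gene lower of 6 tested: cnc had 172 ± 5.14 CPM in induced and 199 ± 6.57 CPM in uninduced heads (SD, n = 4 each; log2 fold change -0.21, edgeR adjusted p = 0.00163). Its inhibitor Keap1 (-0.12, adjusted p = 0.17), its partner maf-S (-0.16, 0.144), the nuclear receptor Hr96 (0.12, 0.202) ss, the counterpart of the vertebrate dioxin receptor (0.35, 0.0573), and its partner tgo (0.03, 0.764) did not pass. With scaling to library totals only, 0 of these regulators were lower and 3 higher, and without uninduced replicate 3 there were 2 lower and 1 higher. Counts are per gene, so CncC was not separated from other products of cnc. For the synthesis and turnover of glutathione, 2 of 7 tested genes were higher and 2 lower, with a median log2 fold change of -0.04. The gamma-glutamyl transferase gene CG1492 moved most (-0.45, edgeR adjusted p = 0.00103). The catalytic and modifier subunits of the rate-limiting glutamate-cysteine ligase, named after their values were seen, moved apart: Gclc was higher (0.23, edgeR adjusted p = 6.97e-04) and Gclm lower (-0.21, edgeR adjusted p = 0.00787). With library totals only, 3 genes of this list were higher and 1, CG1492, was lower, so Gclm was then not called lower. Both glutathione synthetase genes, GS and CG32495, were listed at 0 counts in every library. They are near-identical neighbours, and since the treatment of reads that match both is not given, the 0 does not show that they were silent.

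Of the thioredoxin and peroxidase enzymes, 11 of 14 tested genes were lower and 1 higher, with a median log2 fold change of -0.38, and the peroxiredoxin gene Prx2540-1 fell most (-0.79, edgeR adjusted p = 2.38e-05). Its near-identical copy Prx2540-2 did not pass (-0.02, edgeR adjusted p = 0.915), and the split of reads between these copies is uncertain. Of the cytochrome P450 genes, which oxidise foreign compounds before conjugation, 11 of 13 were lower with a median of -0.58, led by Cyp12d1-p, which also has a near-identical copy (-1.59, edgeR adjusted p = 7.7e-04). Without uninduced replicate 4 the log2 fold change of Cyp12d1-p was -1.20, and that of Cyp6w1, named after its values were seen, was larger in size at -1.39. Of the UDP-glycosyltransferase genes, the other large family of conjugating enzymes, 2 of 7 were lower with a median of -0.27, Ugt86Da most among those (-0.32, edgeR adjusted p = 0.00105), and with library totals only 0 were lower and 1 higher. Among the ABC transporters, 3 of 5 were lower and 1 higher with a median of -0.34. Mdr50 fell most (-1.44, edgeR adjusted p = 6.72e-05). The 1 that rose, named after its values were seen, was MRP, an exporter of glutathione conjugates, with 263 ± 10.6 CPM in induced and 184 ± 5.30 CPM in uninduced heads (SD, n = 4 each; log2 fold change 0.51, edgeR adjusted p = 9.87e-07). Of 5 genes of pteridine metabolism beside se, which includes the drosopterin pathway, 1 was higher and 1, ry, was lower (-0.35, edgeR adjusted p = 3.97e-04). Of 6 other genes for proteins with a GST-like domain, 1 was lower, the translation factor gene Ef1gamma (-0.16, edgeR adjusted p = 0.0172). The number lower was 0 without induced replicate 4 or uninduced replicate 1 or 2. With library totals only 0 were lower and 2 higher, and Ef1gamma was at 0.016 (edgeR adjusted p = 0.801). Without uninduced replicate 4, 1 was lower and 1 higher.

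Fat body markers moved in the same direction as most GST genes. The counts of markers called stand beside the 17.7% of all genes tested that were higher and the 18.8% that were lower. All 8 tested of 9 in the table were lower, with a median log2 fold change of -0.59, and Lsp2, a larval storage protein gene, fell most (-4.47, edgeR adjusted p = 1.5e-08). Their summed level was 90020 to 114900 CPM in induced and 140900 to 152300 CPM in uninduced heads. The induced sum was 69.8% of the uninduced sum, beside 72.2% for the Epsilon and 83.2% for the Delta sum. These shares were 71.0%, 75.8% and 85.5% without uninduced replicate 4, and 78.8%, 81.7% and 94.1% with library totals only. Most of the marker sum came from Yp1, Yp2, Yp3 and apolpp, at 44260, 23840, 23300 and 8846 CPM on average in induced heads. No marker was at 0 in every library, and uninduced replicate 4 had the highest sum for the fat body markers as for the GST family. Among induced libraries the fat body sum was 114900, 90020, 107900 and 92500 CPM in replicates 1 to 4, a spread that the Epsilon sum of 692, 687, 684 and 677 CPM did not show. Glial markers had a summed level of 1588 to 1711 CPM in induced and 1909 to 1997 CPM in uninduced heads, without overlap. Of the 8 glial markers 2 were higher and 3 lower (median -0.03), and Eaat1, a glutamate transporter gene, moved most (-0.88, edgeR adjusted p = 2.95e-09). A large part of the difference in the glial sum was Eaat1 alone, with 245.5 CPM in induced and 450.4 CPM in uninduced heads. The number of higher glial markers was 1 without induced replicate 2, 3 or 4 or uninduced replicate 1, 3 or 4. Of the 8 neuronal markers 2 were higher and 2 lower (median 0.02), with elav moving most (0.19, edgeR adjusted p = 0.00166). With library totals only 6 neuronal markers were higher and 0 lower, and 0 were lower without induced replicate 1 or 3 or uninduced replicate 2 or 3. The number of higher neuronal markers was 1 without any 1 induced library or uninduced replicate 1. Of the 9 photoreceptor markers 2 were higher and 1, ninaA, was lower (median 0.07, ninaA -0.24, edgeR adjusted p = 0.00257). With library totals only 7 photoreceptor markers were higher and 0 lower, and the number higher was 0 without induced replicate 4 and 1 without induced replicate 2. Of the 6 muscle markers 2 were higher (median 0.03), Act88F most (1.01, edgeR adjusted p = 0.00145), with 4 higher under library totals only and 1 without induced replicate 2 or 4 or uninduced replicate 2 or 4. The part of fat body or glial RNA in the GST values was not tested.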

How the data were processed

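RNA-seq libraries were made from whole heads of induced and uninduced flies, with 4 libraries per group. Reads were mapped to Dm6 by the authors, who deposited 1 raw count per gene and library. For the aligner, counter, strand and multiply mapped reads, the setting is not given in the sources used here. Another 8 per-library columns of values normalized by the authors, and the columns of their own comparison (fold changes, p-values and dispersions from DESeq2, as named in the submitters' processing notes), were not used. The test used was that of edgeR 4.0.16 under R 4.3.3 (TMM normalization, filterByExpr, quasi-likelihood test), with a single factor and Benjamini-Hochberg adjustment over the 9905 genes that passed the filter, and an adjusted p under 0.05 was a call. Standard errors are approximate and were obtained from the F statistic and the size of the log2 fold change. The labels call the libraries biological replicates. Intervals and the floor of 3 counts cover counting error only.

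The 37 genes were matched by symbol to the Ensembl annotation of BDGP6 (37 matched), which gave positions, exon lengths and overlaps. The members and the gene lists were chosen with earlier results of these data known, so no list was tested as a set. The lists are glutathione synthesis and turnover, thioredoxin and peroxidase enzymes, CncC and other regulators, cytochromes P450, UDP-glycosyltransferases and ABC transporters. Further lists are pteridine metabolism with the drosopterin pathway, phenylalanine and tyrosine breakdown, and GST-like domains. Marker lists cover fat body, glia, neurons, photoreceptors, muscle, and midgut with germline. Named in full are, in each class, the genes past the adjusted p and the most abundant gene, and in each list the called gene with the largest absolute log2 fold change and all regulators tested. Alternatives were DESeq2 1.42.0, RLE and upper quartile normalization, library totals only, the absence of a filter, a minimum of 10 counts in each library, a block for the replicate number, and each library left out in turn. The scripts were tested on simulated data.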

Additional observations from a re-analysis of the deposited data

Results flagged for a closer look

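For 68 sets of 4 CPM values, the gap of the extreme library to its neighbour was compared with the whole range. Each set was 1 tested gene, or the summed Delta or Epsilon class, in 1 group, so the sums hold genes already counted. The gap was unusually wide in 4 sets, and chance alone gives about 1 in 20, which is 3.4. All 4 were uninduced replicate 4 lying above the others: GstT1 at 38.6 CPM (next value 32.6), GstO3 at 66.5 CPM (55.2), se at 40.2 CPM (35.7) and GstZ2 at 17.9 CPM (16.1). None of these 4 genes was called in edgeR with all libraries, and without that library only se passed (adjusted p = 0.0204).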

How the results depend on the processing

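Of the 16 genes called, 12 kept direction and call under every alternative that tested them, and GstE5, GstE6, GstE10 and GstD1 did not. The number of lower genes was 11 to 16 over the alternatives, and 13 to 15 with each library left out. The number of higher genes was 4 with library totals only (GstD5, GstD10, GstD3 and se), 2 without a filter and 2 in DESeq2 (GstD5 and GstE4 in both), 0 with at least 10 counts in every library, where GstD5 was not tested (1 at an unadjusted p under 0.05), and 1 to 3 with each library left out. Library totals only, which moved the median of all genes by 0.18 and that of the GST genes to -0.00, turned the sign of 10 genes that were not called: GstT1 (0.149), GstT2 (0.146), GstT4 (0.061), GstE2 (0.092), GstE14 (0.149), GstO1 (0.159), GstO2 (0.003), GstO3 (0.121), GstZ2 (0.041) and GstD9 (0.137). Over the fits with 1 library left out, log2 fold changes spanned zero for GstT1 (-0.074 to 0.045), GstT2 (-0.069 to 0.023), GstE14 (-0.097 to 0.022), GstO3 (-0.092 to 0.025) and GstO1 (-0.060 to 0.068). The replicate block gave 1 higher and 15 lower genes, and changed the call of GstE6 and GstO2 and of no other GST gene. Same-numbered libraries did not deviate together (correlations of -0.069, -0.016, 0.003 and 0.023 for replicates 1 to 4). This check cannot exclude a shared batch, and the labels do not say whether the numbers pair the samples. The cause of these changes was not tested. Depth limits GstD4, GstD6, GstD7 and GstD8 most.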
